A study of Mus musculus with 18 samples.

Results

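H19, a long non-coding RNA that is transcribed from the maternal chromosome, was followed together with 9 other imprinted genes of the mouse, Meg3, Peg3, Dlk1, Cdkn1c, Grb10, Ndn, Plagl1, Igf2r and Mest. These 10 genes were read from tables of 34579 loci by taking the rows whose gene name equals theirs and, where a name has several rows, the row with the highest mean over all groups. H19 was chosen by its own values, which are more than 1.5-fold higher with CFA in 2 of the 3 vector groups. CFA is Complete Freund's Adjuvant, which inflames the injected paw. The other members were chosen by name as partners of H19. The values of H19 are therefore given as a description, and the open question was whether other imprinted genes went with it.

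The data are bulk RNAseq of the dorsal spinal cord (segments L3–5) of C57BL/6 mice at 3 months of age. All mice had received an intraspinal rAAV, an adeno-associated viral vector. It carried LacZ, a bacterial enzyme that served as the control, HDAC4 wt, the wild-type histone deacetylase 4, or HDAC4 3SA, a mutant of HDAC4 that stays in the nucleus. In each vector group, 3 mice received intraplantar saline and 3 received intraplantar CFA, and tissue was taken 24 h later, which makes 6 groups and 18 mice. Below, a value under LacZ, HDAC4 wt or HDAC4 3SA is one of mice that had received this vector. The vector was delivered to the dorsal horn on both sides and the adjuvant to one hindpaw, and the tissue holds transduced and other cells together. The labels do not give the sex of the mice. The tables hold 1 FPKM value per group (fragments scaled to exon length and library size, a level per transcript length). They hold no value per mouse, no counts and no depth per library, so no SD and no test across mice can be given and every difference below is a difference between 2 group values without a replicate check. Each vector was normalized in its own run, and levels of different vectors are set side by side as a description only.

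Imprinted genes are expressed mainly from the copy of 1 parent, by marks set in the germ line at control regions. They lie in clusters, and many act on fetal growth. H19 and Igf2, the gene of insulin-like growth factor 2, share enhancers on opposite parental chromosomes, and several imprinted genes are known to be expressed together in growing tissue and to decline after birth, which is described as an imprinted gene network. The mice were of 1 inbred strain, so the parental copies cannot be told apart in these data, and the terms maternal and paternal below are textbook background.

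On GRCm38 (GENCODE M21), H19 lies on the minus strand of chromosome 7 from 142575529 to 142578143, and its locus in the tables runs from 142575535 to 142578110. Cdkn1c lies 880.2 kb away on the same chromosome. Peg3 (chromosome 7 from 6703892 to 6730431) and Ndn (chromosome 7 from 62346569 to 62350262) belong to other clusters of this chromosome. Dlk1 (chromosome 12 from 109452823 to 109463336) and Meg3 (chromosome 12 from 109541001 to 109571726) lie 77.66 kb apart. Grb10 is on chromosome 11, Plagl1 on chromosome 10, Mest on chromosome 6 and Igf2r on chromosome 17. Igf2r overlaps its antisense RNA Airn, and both have rows for the same locus in the tables. Mest overlaps Copg2, its locus in the tables runs on past its own end, and Cdkn1c overlaps the antisense gene Gm44732. The libraries marked the strand, but the sources used here do not state that strand was used in counting, and the values of overlapping genes are uncertain to that extent.

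Among the members, H19, Meg3 and Mest, as well as Igf2, also carry microRNAs. Their mature sequences are shown because H19 is both a long RNA and the precursor of miR-675, so the values below are those of the host transcripts and not of these products, which were not measured. The sequences are from RefSeq (GRCm38.p6), written 5′ to 3′, with the seed (bases 2 to 8) in capitals. The 2 products of H19 come from chromosome 7, minus strand, from 142577112 to 142577133 and from 142577078 to 142577099, within an exon of 3 annotated H19 transcripts. Those of Igf2 and Mest lie in introns of their hosts, and those of Meg3 in an exon of 1 transcript. The 8 sequences have 8 different seeds.
mmu-miR-675-5p (H19): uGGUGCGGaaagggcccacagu
mmu-miR-675-3p (H19): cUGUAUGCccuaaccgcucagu
mmu-miR-483-5p (Igf2): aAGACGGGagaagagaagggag
mmu-miR-483-3p (Igf2): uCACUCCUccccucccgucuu
mmu-miR-770-5p (Meg3): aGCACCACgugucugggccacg
mmu-miR-770-3p (Meg3): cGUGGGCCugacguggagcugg
mmu-miR-335-5p (Mest): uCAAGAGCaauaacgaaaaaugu
mmu-miR-335-3p (Mest): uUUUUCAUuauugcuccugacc

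H19 was the lowest of the 10 genes in each of the 6 groups. It had 0.362 FPKM with saline and 1.05 FPKM with CFA under LacZ, a 2.89-fold higher value. Under HDAC4 wt it had 0.600 FPKM with saline and 3.38 FPKM with CFA, which is 5.64-fold higher. Under HDAC4 3SA the values were 0.700 and 0.944 FPKM, a ratio of 1.35. The group of HDAC4 wt mice with CFA stood apart at the top, the LacZ and HDAC4 3SA groups with CFA lay close together at 1.05 and 0.944 FPKM, and the 3 saline groups were lowest. The smaller ratio under HDAC4 3SA than under LacZ came with a saline value that was 1.93 times that of LacZ mice, while the values after CFA differed by little. Beside HDAC4 wt it was otherwise. There the saline values were 0.600 (HDAC4 wt) and 0.700 FPKM (HDAC4 3SA), and the values after CFA were 3.38 and 0.944 FPKM. Whether neighbours in this order differ beyond the spread between mice cannot be told from 1 value per group.

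**Figure D1:**
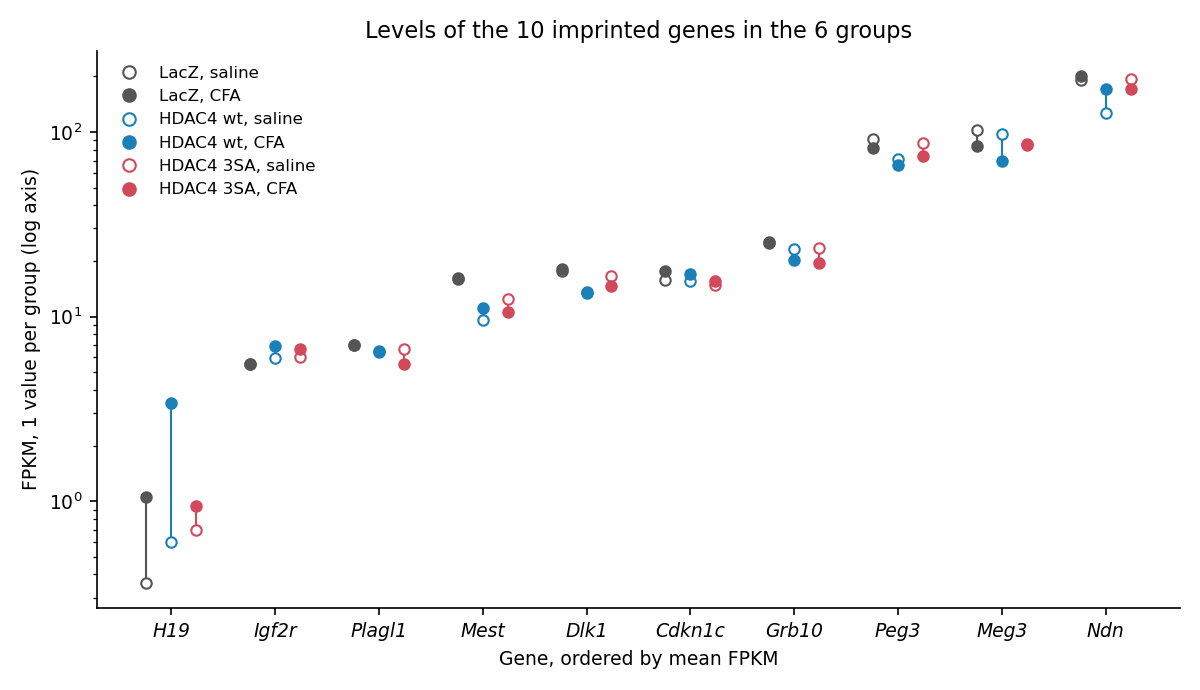
FPKM of the 10 imprinted genes (log axis), 1 value per group of 3 mice; open points are saline and filled points CFA, joined within each vector by a line. H19 lies lowest, between 0.362 and 3.38 FPKM, and its lines for LacZ and HDAC4 wt are long, whereas the points of the other genes nearly cover each other.

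To place these ratios, 0.1 FPKM was added to both values and the log2 of CFA over saline was taken for each locus averaging 0.5 FPKM or more in the vector group. The log2 ratio of H19 was 1.31 under LacZ, 2.31 under HDAC4 wt and 0.38 under HDAC4 3SA. Of 21440 loci under LacZ, 158 (0.737%) had a higher ratio than H19, and of 22069 loci under HDAC4 wt 114 (0.517%) did. Under HDAC4 3SA 3252 of 22036 loci (14.8%) lay above H19. Low levels scatter more, so the same was read among loci with a mean of 0.5 to 5 FPKM, the range that holds H19. There, 1.19% of the loci under LacZ, 0.306% under HDAC4 wt and 19.8% under HDAC4 3SA lay above it. H19 was thus among the highest ratios of its own level in the LacZ and HDAC4 wt groups, which is what it had been chosen for, and within the bulk of loci under HDAC4 3SA.

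The other 9 members showed no such difference in any vector group. A log2 ratio past 1.5-fold was reached by 0 of the 9 under LacZ, 0 of the 9 under HDAC4 wt and 0 of the 9 under HDAC4 3SA. Over all loci averaging 0.5 FPKM or more, 3.89% were higher and 3.53% were lower past 1.5-fold under LacZ. The shares were 8.4% and 5.18% under HDAC4 wt and 9.48% and 4.4% under HDAC4 3SA. Among loci with a mean of 0.5 to 5 FPKM, 6.03%, 12.0% and 12.8% were higher past 1.5-fold in the 3 vector groups. The 9 members averaged more than 5 FPKM in each vector group, above this range, and no share was computed for loci at their level. With 9 genes, a count of 0 is near the shares given, so it describes the members and does not set them apart from other genes. The median log2 ratio of the 9 was 0.01 under LacZ, 0.01 under HDAC4 wt and -0.19 under HDAC4 3SA, beside medians over all loci of 0.00, 0.01 and 0.01. All 9 lay within the central 90% of loci in each vector group, a band from -0.45 to 0.51 under LacZ, from -0.59 to 0.77 under HDAC4 wt and from -0.54 to 0.89 under HDAC4 3SA. This band also takes in loci of lower level, which scatter more, and none was computed at the level of the 9.

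**Figure D2:**
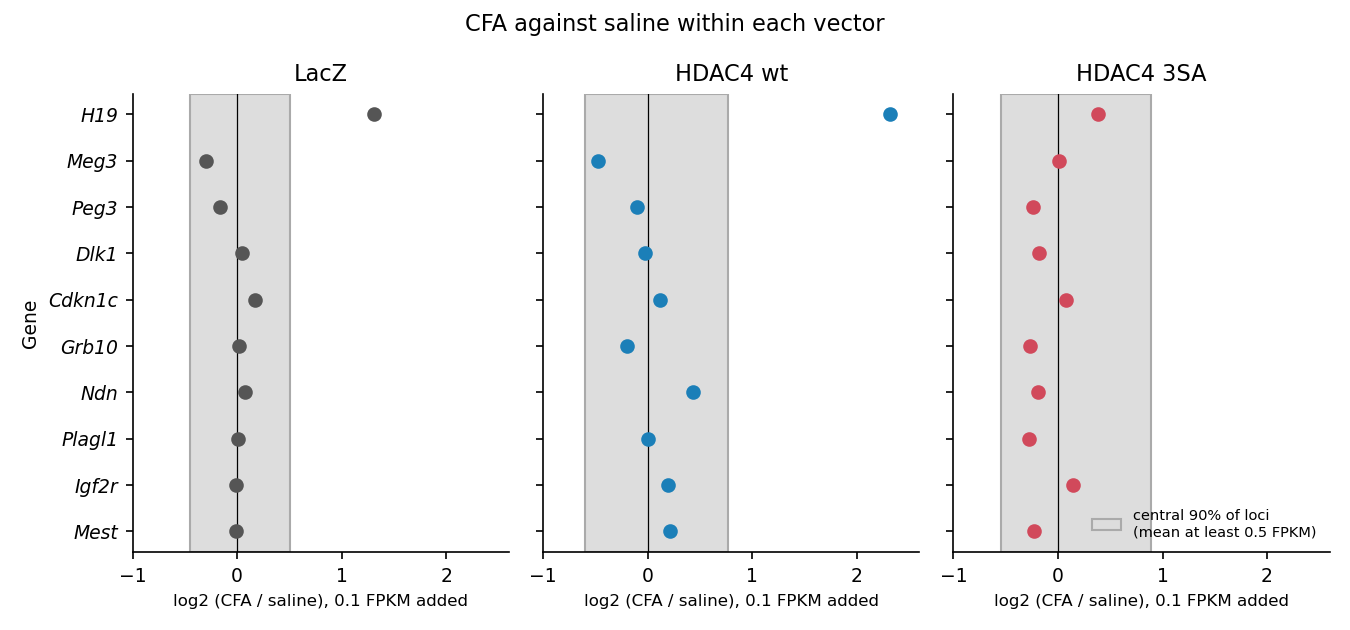
Log2 of CFA over saline with 0.1 FPKM added, for each member (rows) in each vector group (panels); the grey band holds the central 90% of loci averaging 0.5 FPKM or more. H19 lies outside the band at 1.31 under LacZ and 2.31 under HDAC4 wt and inside it at 0.38 under HDAC4 3SA, and the 9 other genes lie inside in all panels.

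Meg3, the other long non-coding RNA among the members and like H19 transcribed from the maternal chromosome, went the opposite way in the LacZ and HDAC4 wt groups. It had 102.9 FPKM with saline and 83.7 FPKM with CFA under LacZ and 97.0 and 70.0 FPKM under HDAC4 wt, log2 ratios of -0.30 and -0.47. Under HDAC4 3SA the values were 84.9 and 85.6 FPKM. The value under HDAC4 wt was the lowest log2 ratio of any member. Its neighbour Dlk1, which encodes a transmembrane protein related to Notch ligands and is expressed from the paternal chromosome, had 17.6 and 18.2 FPKM under LacZ, 13.7 and 13.4 FPKM under HDAC4 wt and 16.6 and 14.6 FPKM under HDAC4 3SA. Rian, a further non-coding RNA of the same cluster, had log2 ratios of -0.14, -0.28 and -0.38 under LacZ, HDAC4 wt and HDAC4 3SA, at 177.1 to 243.0 FPKM. The values of Meg3 and Rian were lower with CFA under both LacZ and HDAC4 wt, where H19 was higher. Of 7 neuronal marker genes, 6 were lower under LacZ and 6 under HDAC4 wt, with medians of -0.07 and -0.23, and their part in the values of Meg3 and Rian was not tested.

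The growth-restraining genes that are expressed from the maternal chromosome differed little. Cdkn1c, which encodes the cell cycle inhibitor p57, had 15.7 and 17.7 FPKM with saline and CFA under LacZ, 15.6 and 17.0 FPKM under HDAC4 wt and 14.8 and 15.6 FPKM under HDAC4 3SA. It was the only member besides H19 with a higher value after CFA in all 3 vector groups, by log2 ratios of 0.17, 0.12 and 0.08. Igf2r, the receptor that takes up and degrades IGF2, had 5.55 and 5.53 FPKM under LacZ, 5.98 and 6.89 FPKM under HDAC4 wt and 6.07 and 6.70 FPKM under HDAC4 3SA. Grb10, an adaptor that dampens signals of the insulin and IGF1 receptors and is known to be expressed from the paternal copy in neurons, had 24.98 and 25.3 FPKM, 23.2 and 20.2 FPKM and 23.7 and 19.6 FPKM in the same order. For these 3 genes the log2 ratios of all vector groups lay between -0.27 and 0.20.

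The members expressed from the paternal chromosome were lower with CFA under HDAC4 3SA in 5 of 5 cases, with log2 ratios between -0.28 and -0.18. Over all loci 51.8% were higher there, and 7 of 7 neuronal marker genes were lower, with a median of -0.41, whose part in these values was not tested. Under LacZ 3 of the 5 and under HDAC4 wt 3 of the 5 were higher. Ndn, which encodes the MAGE protein necdin of postmitotic neurons, was the most abundant member, with 190.3 and 200.9 FPKM under LacZ, 126.2 and 171.2 FPKM under HDAC4 wt and 194.5 and 170.0 FPKM under HDAC4 3SA. Its log2 ratio of 0.44 under HDAC4 wt was the highest after H19, and there the saline value was the one that lay apart from the other 5. Peg3, a zinc finger protein gene, had 92.0 and 82.2 FPKM, 71.2 and 66.5 FPKM and 87.5 and 73.9 FPKM, and was lower with CFA in each vector group. Plagl1, a zinc finger transcription factor known to bind at H19 and other imprinted genes, had 6.98 and 7.03 FPKM under LacZ, 6.46 and 6.49 FPKM under HDAC4 wt and 6.71 and 5.51 FPKM under HDAC4 3SA. Its values with saline and CFA were nearly equal in the LacZ and HDAC4 wt groups, where H19 was 2.89- and 5.64-fold higher. These are RNA levels, binding was not measured, and the part of Plagl1 in the values of H19 was not tested. Mest, which encodes a hydrolase-like protein, had 16.2 and 16.1 FPKM, 9.59 and 11.1 FPKM and 12.4 and 10.6 FPKM.

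Across the vectors, the saline values of H19, Mest and Ndn were the most spread. The highest of the 3 saline values was 1.93 times the lowest for H19, 1.69 times for Mest and 1.54 times for Ndn, and between 1.06 and 1.29 times for the other 7 genes. For Mest and Ndn these distances between vectors exceed the distance between CFA and saline within any vector. Since each vector was normalized in its own run, these are descriptions. Hdac4 itself had 7.41 and 7.72 FPKM under LacZ, 10.1 and 10.8 FPKM under HDAC4 wt and 8.86 and 8.81 FPKM under HDAC4 3SA, and how far reads of the vector enter this locus is unknown.

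Igf2, the partner of H19, could be compared in the HDAC4 wt and HDAC4 3SA tables only. Its gene lies on the minus strand of chromosome 7 from 142650766 to 142666816, and in these tables its row is a locus from 142650764 to 142659482, 72.62 kb from H19. Under HDAC4 wt it had 0.110 FPKM with saline and 0.761 FPKM with CFA, a 6.90-fold higher value, beside 5.64-fold for H19. Under HDAC4 3SA it had 0.107 and 0.188 FPKM, a ratio of 1.77, beside 1.35 for H19. In the LacZ table the row named Igf2 is a locus of 242 bp from 142660983 to 142661224, which also lies inside the antisense gene Igf2os, and its 21.1 and 28.1 FPKM were not compared with the others. All 4 comparable values lie below 1 FPKM, and Igf2 averaged less than the minimum of 0.5 FPKM used for lists in both vector groups. With 0.1 FPKM added, its log2 ratios were 2.03 under HDAC4 wt and 0.48 under HDAC4 3SA. No share of loci at this level was computed, and without counts the precision of these values is unknown.

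Among the further imprinted genes, more were lower than higher with CFA in each vector group. A list of 42 other imprinted genes gave 33 with a row of their own at the same place in all tables, and 32 of these have a value above 0 in all groups. Of the 29 genes averaging 0.5 FPKM or more under LacZ, 10 were higher and 19 lower with CFA, with a median log2 ratio of -0.04. Under HDAC4 wt 8 of 25 were higher, with a median of -0.11, and under HDAC4 3SA 10 of 28, with a median of -0.17. Over all loci 50.2%, 52.4% and 51.8% were higher with CFA. The medians of 7 neuronal marker genes were -0.07, -0.23 and -0.41 in the same order, and their part in the values of the list was not tested. Past 1.5-fold, 1 of the 29 genes was higher under LacZ, 0 of the 25 under HDAC4 wt, and 1 of the 28 was higher and 2 were lower under HDAC4 3SA. With shares over all loci of 3.89%, 8.4% and 9.48% higher and 4.4% lower under HDAC4 3SA, these small counts describe the list and do not set it apart.

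Of the genes read, and so without Igf2, none was past 1.5-fold in the same direction in more than 1 vector group. Snrpn, which encodes a small nuclear ribonucleoprotein of the Prader-Willi region, had 69.9 and 113.0 FPKM under LacZ, 33.8 and 43.4 FPKM under HDAC4 wt and 32.0 and 20.1 FPKM under HDAC4 3SA. It was 1.62-fold higher in the first and 0.627-fold in the last, but this row is a locus of 75 bp, and the highest of the 3 rows that span the gene had log2 ratios of -0.09, -0.29 and -0.27. Airn, the antisense RNA of Igf2r, had 4.78 and 2.39 FPKM under HDAC4 3SA, a ratio of 0.5, and 3.58 and 4.14 FPKM under LacZ. Slc22a18, a transporter gene of the Cdkn1c cluster, had 0.947 and 1.86 FPKM under HDAC4 3SA, a ratio of 1.96, and was higher with CFA in the other vector groups by log2 ratios of 0.27 and 0.46. The 6 genes of the list with the highest mean level include no gene past 1.5-fold besides Snrpn. Rasgrf1, an exchange factor of Ras, had log2 ratios of -0.02, 0.05 and -0.26, and Peg13, a non-coding RNA, 0.02, -0.11 and -0.27. Inpp5f, a phosphoinositide phosphatase gene, had -0.07, -0.15 and -0.19, and Nnat, which encodes neuronatin, -0.12, 0.03 and 0.06.

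**Figure D3:**
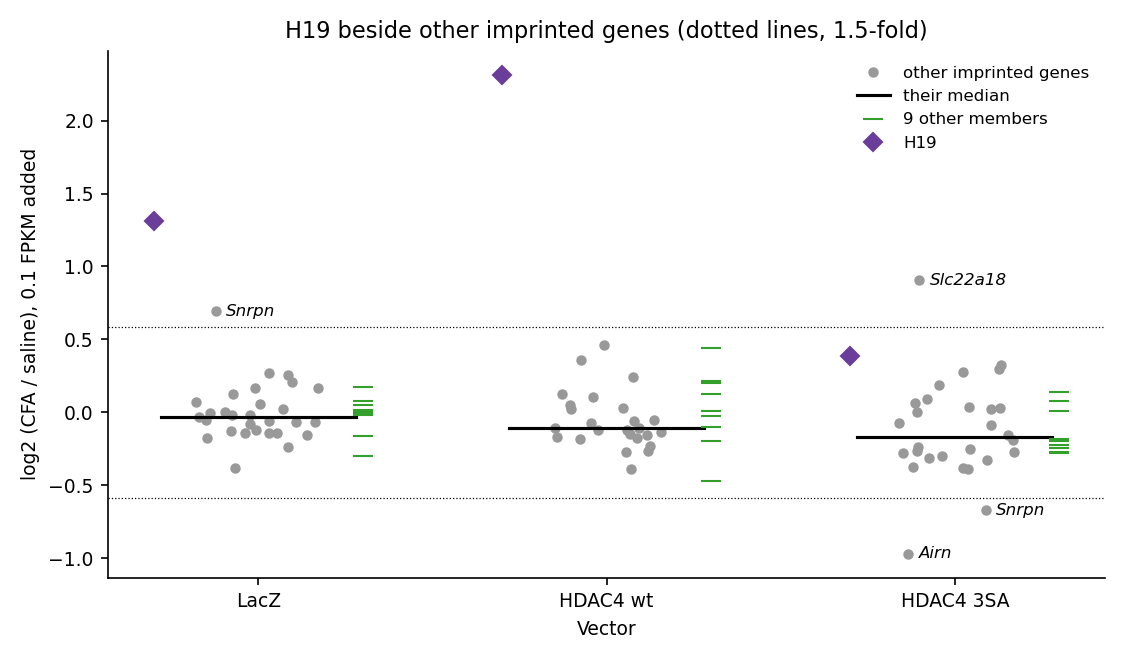
Log2 of CFA over saline with 0.1 FPKM added in the 3 vector groups, for H19 (diamonds), the 9 other members (dashes) and other imprinted genes averaging 0.5 FPKM or more (points, with their median as a bar); dotted lines mark 1.5-fold and genes past them are named. H19 stands above all other imprinted genes shown under LacZ (1.31) and HDAC4 wt (2.31) but not under HDAC4 3SA (0.38).

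Of a list of 14 genes around H19 on chromosome 7, 9 had a row at the same place in all tables and 8 could be read, which leaves out Igf2. None of these 8 was higher past 1.5-fold in both the LacZ and the HDAC4 wt group. Mrpl23, a gene of the mitochondrial ribosome and its nearest neighbour in the list at 34.78 kb, had log2 ratios of -0.06, -0.06 and 0.02 under LacZ, HDAC4 wt and HDAC4 3SA. Of the 8, 3 were higher past 1.5-fold under LacZ, 1 was lower under HDAC4 wt and 1 was higher under HDAC4 3SA, beside 3.89%, 5.18% and 9.48% of all loci in these directions. The 3 of 8 under LacZ lie above that share, and 2 of these 3 genes are markers of muscle, whose genes were also higher there. Tnnt3 and Tnni2, troponin genes of fast skeletal muscle, had log2 ratios of 0.99 and 1.33 under LacZ. Tnnt3 had 1.59 FPKM with saline and 0.270 FPKM with CFA under HDAC4 wt, the group in which H19 was highest. Tspan32, a tetraspanin of blood cells, had 0.996 and 2.35 FPKM under LacZ and 3.18 and 4.73 FPKM under HDAC4 wt, and Lsp1, a leukocyte gene, 7.14 and 12.0 FPKM under HDAC4 3SA. Th and Cd81, on the far side of Igf2, had log2 ratios between -0.24 and 0.30. Tspan32, which starts between these genes, had 1.16 under LacZ and 0.56 under HDAC4 wt.

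**Figure D4:**
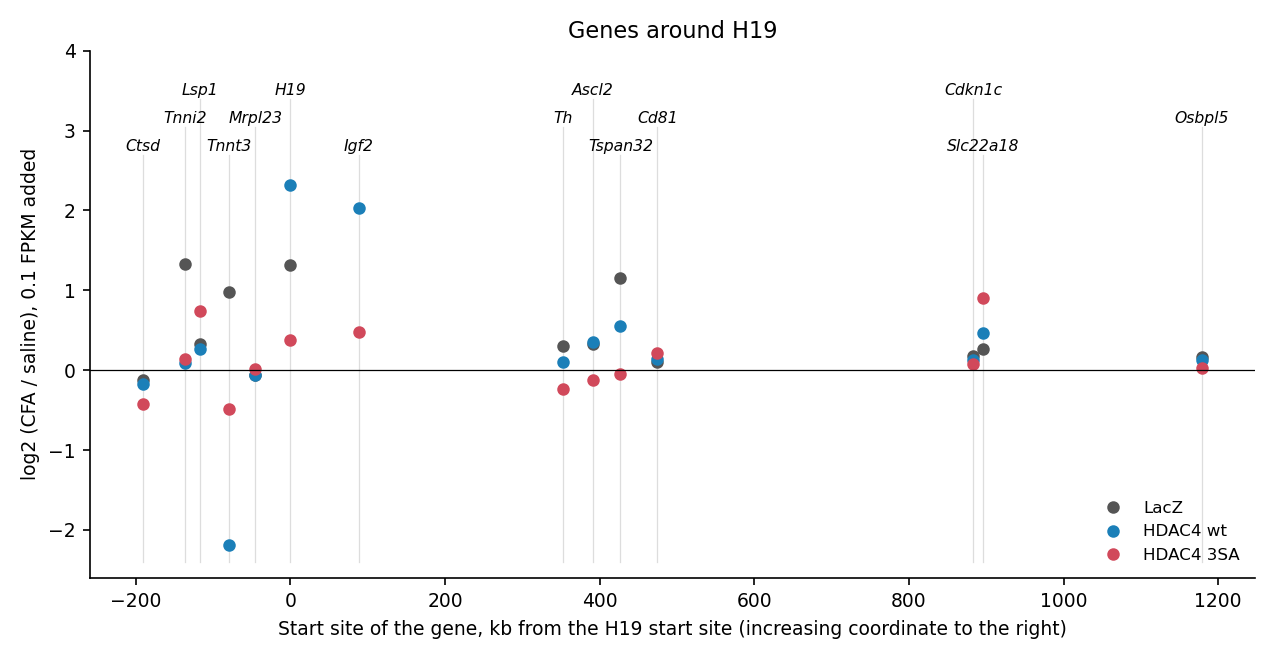
Log2 of CFA over saline with 0.1 FPKM added, against the distance of the gene's start site from that of H19 in kb, for each vector group (colors); Igf2 is shown for HDAC4 wt and HDAC4 3SA only. H19 and Igf2 are high under HDAC4 wt at 2.31 and 2.03, where Igf2 averages less than 0.5 FPKM. Mrpl23 on one side and Th on the other lie between -0.24 and 0.30. Tnnt3, Tnni2 and Tspan32 lie at 0.99, 1.33 and 1.16 under LacZ, and Tnnt3 at -2.19 under HDAC4 wt.

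Of the genes of a list of 17 for the axis of insulin-like growth factors, read without Igf2, 13 averaged 0.5 FPKM or more under LacZ, and 2 were higher and 1 lower past 1.5-fold. Under HDAC4 wt 1 of 14 and under HDAC4 3SA 2 of 14 were higher past 1.5-fold and 0 of 14 were lower in both. The gene counted as lower under LacZ and the one counted as higher under HDAC4 wt are both Igf1, whose rows differ. Over all loci 3.89% were higher and 3.53% lower under LacZ, and 8.4% and 9.48% were higher under the other vectors, so the counts lie above the share under LacZ and near it under the other vectors. Igfbp7 had 23.2 and 40.4 FPKM under LacZ, 41.4 and 60.0 FPKM under HDAC4 wt and 36.9 and 56.0 FPKM under HDAC4 3SA, and Igfbp6, a binding protein that prefers IGF2, had 9.04 and 17.0, 10.1 and 12.8, and 9.62 and 9.93 FPKM. The ratio of Igfbp6 was 1.88 under LacZ, 1.27 under HDAC4 wt and 1.03 under HDAC4 3SA. Igf1r, the receptor of IGF1 and IGF2, had log2 ratios of -0.04, 0.12 and -0.05, and Pappa, a protease of IGF binding proteins, 0.76 under HDAC4 3SA. Igf1 has 2 rows at the same place with unlike ratios (log2 -1.24, 1.07 and 0.37 for one and -0.08, 0.26 and 0.76 for the other), and no direction is read from it.

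The 10 loci whose 3 log2 ratios were nearest to those of H19, among 17192 loci that name 1 gene, hold none of the imprinted genes that could be ranked. Igf2 was not ranked, for its place in the LacZ table. Chad, which encodes chondroadherin of cartilage matrix, had 0.502 and 1.10 FPKM, 0.599 and 3.06 FPKM and 0.573 and 0.560 FPKM, at a Euclidean distance of 0.53. Thbs1, the matricellular protein thrombospondin 1, had ratios of 2.12, 2.56 and 1.08, at a distance of 1.06. The rows of Plod1, a lysyl hydroxylase of collagen, Nadk and B230311B06Rik are the lower of several rows at their place, and those of Lsm10, Bcl2a1c, Aldh1a7 and 4731419I09Rik are loci of 85 to 155 bp. Of the imprinted genes in this comparison the nearest was Slc22a18, at rank 1030 with a distance of 2.19, and the nearest other member was Ndn, at rank 1736. The rows compared share the same libraries, and the ranking describes them.

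Markers of several cell types moved beside H19, and their part in its values was not tested. In bulk tissue, fewer cells of a type and less RNA per cell cannot be told apart. Of 16 genes of leptomeningeal fibroblasts, the connective tissue cells of the pia and arachnoid, 16 were higher with CFA under LacZ, with a median log2 ratio of 0.54, 7 of them past 1.5-fold, and the summed level went from 190.5 to 265.4 FPKM. Under HDAC4 wt 11 of 16 were higher, with a median of 0.14, 2 past 1.5-fold and sums of 256.1 and 263.5 FPKM. Under HDAC4 3SA 9 of 15 were higher, with a median of 0.13, 0 past 1.5-fold upward and sums of 235.0 and 231.2 FPKM. The shares of all loci higher past 1.5-fold were 3.89%, 8.4% and 9.48% in the same order. The median of this list was highest under LacZ, whereas H19 was highest under HDAC4 wt. Slc47a1, a transporter gene, had 0.0370 and 1.26 FPKM under LacZ, 0.0407 and 1.30 FPKM under HDAC4 wt and 0.0442 and 0.121 FPKM under HDAC4 3SA, and so was high in the same vector groups as H19. Crabp2, a retinoic acid-binding protein gene, had ratios of 3.79, 1.78 and 1.10. The transporter genes Slc13a4 (log2 0.90, 0.27 and -0.09) and Slc6a20a (0.84, 0.12 and 0.17) and the transcription factor gene Foxd1 (0.82, 0.38 and 0.13) were past 1.5-fold under LacZ alone, and the matrix gene Ogn (0.53, -0.01 and -0.66) was lower past 1.5-fold under HDAC4 3SA.

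Skeletal muscle is a tissue known to keep H19 expression after birth. Of its 10 markers, 9 could be read under LacZ and 9 of them were higher with CFA, 7 past 1.5-fold, with a median log2 ratio of 1.09 and sums over all 10 of 26.2 and 48.9 FPKM. Under HDAC4 wt 4 of 5 were lower, 2 past 1.5-fold, with a median of -0.52. The other markers averaged less than 0.5 FPKM there and do not enter this median or count, and all of them were lower too. Tnnc2, Atp2a1, Myl1, Myh4 and Mb had log2 ratios of -1.71, -1.66, -1.98, -1.42 and -0.45. The sums over all 10 markers were 19.1 and 16.8 FPKM there, of which Tnni1, a troponin of slow muscle, made up 11.5 and 13.96 FPKM and was the 1 gene that was higher. Over all loci 3.89% were higher past 1.5-fold under LacZ and 5.18% lower under HDAC4 wt. The creatine kinase gene Ckm went there from 1.21 to 0.0688 FPKM, and the actin gene Acta1 had a log2 ratio of -1.71. Under LacZ, Ckm, Acta1, Myh4, Atp2a1, Tnnc2 and Myl1, genes of the contractile apparatus and its energy and calcium supply, had log2 ratios of 1.09, 1.16, 1.56, 1.44, 1.26 and 0.79. The summed level was highest under HDAC4 3SA, at 75.8 and 69.6 FPKM, where H19 lay at 0.700 and 0.944 FPKM, and lowest with CFA under HDAC4 wt, where H19 was highest. No row read for a muscle or leptomeningeal marker is listed at 0 in any group.

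Of the sensory ganglion markers with a row, Avil alone was highest in the group in which H19 was highest. Of 7 such genes 4 had a row, and only Avil averaged 0.5 FPKM or more under HDAC4 wt. The sum of the 4 was 1.45 and 1.73 FPKM under LacZ, 3.51 and 10.7 FPKM under HDAC4 wt and 6.84 and 8.57 FPKM under HDAC4 3SA. Avil, which encodes the actin-binding protein advillin of sensory neurons, made up most of this sum, with 3.16 and 9.96 FPKM under HDAC4 wt, 0.933 and 0.853 FPKM under LacZ and 6.28 and 6.93 FPKM under HDAC4 3SA. Isl2, a homeobox gene, had log2 ratios of 0.39, 1.12 and 1.17, and Trpv1, the capsaicin receptor gene, had 0.111 and 0.0960 FPKM under HDAC4 wt and is listed at 0 with saline under HDAC4 3SA. Isl2, Trpv1 and Tmem233 were highest with CFA under HDAC4 3SA, not under HDAC4 wt. Under LacZ, where H19 was 2.89-fold higher, Avil was not.

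Schwann cell genes, which mark the myelin of spinal roots, were higher with CFA in 6 of 6 cases under LacZ, in 1 of 6 under HDAC4 wt and in 0 of 6 under HDAC4 3SA, with medians of 0.63, -0.04 and -0.60. Over all loci 50.2%, 52.4% and 51.8% were higher in the same order. Prx, a myelin gene of peripheral nerve, had log2 ratios of 0.72, -0.04 and -0.75, Egr2 0.72, -0.06 and -0.25, Ncmap 0.50, -0.27 and -0.90, and Drp2 0.63, -0.02 and -0.46. Ependymal genes of the central canal had medians of -1.22, -0.02 and 0.30 over 4 genes. Ccdc153 had 8.04 and 1.47 FPKM under LacZ and 4.44 and 11.4 FPKM under HDAC4 wt, and Fam216b, Tmem212 and Rsph1 were lower under LacZ by log2 ratios of -1.35, -1.09 and -0.75. Endothelial genes had medians of 0.06, 0.15 and 0.24 over 8, with 0 past 1.5-fold in each vector group. Over all loci 3.89%, 8.4% and 9.48% were higher and 3.53%, 5.18% and 4.4% lower past 1.5-fold. With 8 genes a count of 0 is near these shares.

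Neuronal genes had medians of -0.07, -0.23 and -0.41 over 7. Their summed level was 981.2 to 1741 FPKM, and that of 10 dorsal horn genes 252.0 to 340.4 FPKM, so markers of the labelled tissue were present in every group. Dorsal horn genes had medians of 0.35, -0.33 and -0.28. The opioid precursor gene Pdyn and the neuropeptide gene Gal were higher past 1.5-fold under LacZ (log2 0.97 and 0.67), and Lmx1b and Nmu were lower under HDAC4 3SA (-0.59 and -0.71).

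**Figure D5:**
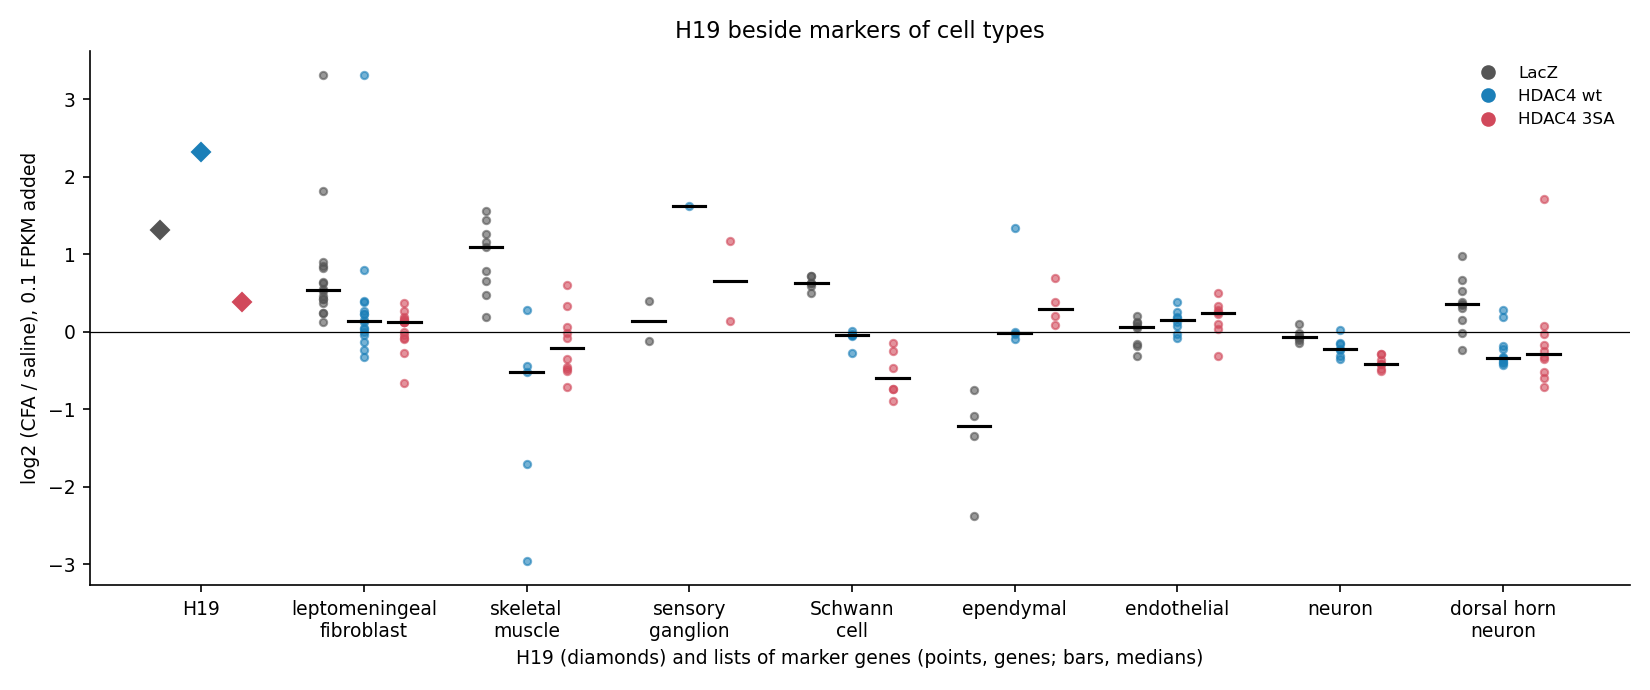
Log2 of CFA over saline with 0.1 FPKM added, for H19 (diamonds) and for lists of marker genes averaging 0.5 FPKM or more (points, with the median as a bar; 1 or 2 genes for the sensory ganglion), by vector group (colors). H19 is highest under HDAC4 wt at 2.31, where Avil, the only sensory ganglion gene read, lies at 1.62. Under LacZ, Avil lies at -0.12 and H19 at 1.31. The medians under HDAC4 wt are 0.14 for leptomeningeal fibroblasts and -0.52 over the 5 of 10 skeletal muscle genes read, and the muscle genes not read were also lower.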

How the data were processed

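The authors mapped reads of poly-A libraries with TopHat and Bowtie to mm10/GRCm38, and used Cufflinks, Cuffmerge and Cuffdiff. The tables do not hold the depth of each library, so the precision that depth gives is unknown. They deposited 1 Cuffdiff gene table per vector, and the deposited FPKM values are 1 estimate per group over 3 mice, normalized within a vector. The tables also hold the authors' own fold changes, test statistics and p-values, which were not used. Places are printed 1-based.

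Ratios of CFA over saline were computed as deposited, and on the log2 scale with 0.1 FPKM added, which lowers the ratio of low genes. Lists were read over genes averaging 0.5 FPKM or more in a vector group, and past the threshold means beyond 1.5-fold on this scale. Of 34579 loci, 386 lie at different places in different tables and were left out of lists. No test was run, since there is 1 value per group. Python 3.11.15, pandas 2.3.3 and numpy 2.4.6 were used, and the functions were tested on simulated data. The members and lists were chosen with earlier results of these data known. Named are the members, Igf2, Hdac4, up to 6 genes per list past 1.5-fold, the 6 highest other imprinted genes and the 10 loci most like H19. A few genes that this rule covers are not reported here. Other genes named (such as Mrpl23, Th and Cd81, or Igf1r, Trpv1, Usp29, Kcnq1ot1 and Slc38a4) were chosen after their values were seen. Alternatives to the FPKM added, the fold, the minimum level, the row taken and the centring were computed.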

Additional observations from a re-analysis of the deposited data

How the results depend on the processing

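The log2 ratio of H19 depends on the constant added, by construction at these low levels. With 1 FPKM added the LacZ ratio was 0.59, the HDAC4 wt ratio 1.45 and the HDAC4 3SA ratio 0.19, and with 0.01 FPKM added the first became 1.51 and the second 2.48. At a threshold 25% above saline, or as far below it on the log2 scale, 2 of the 9 other members (Meg3 and Ndn) passed under HDAC4 wt, and 2, 3 and 7 of the other imprinted genes under the 3 vectors in the same order. At 2-fold the latter were 0 under LacZ and 0 under HDAC4 3SA. Under LacZ they were 2 with a minimum of 0.1 FPKM, 2 with no minimum level, and 0 without loci shorter than 200 bp, an alternative chosen after seeing the data that leaves out Snrpn. The remaining 76 of these 90 values moved by less than 0.1 on the log2 scale or, for counts, by no more than 1.5 times. Of 108 recomputed ratios of the 9 other members, 0 passed 1.5-fold and 1 took the other sign, from a ratio of 0.01 or less. Centring moved ratios by under 0.01. By Pearson correlation over the 6 group values, an alternative chosen after seeing the data, 0 of the 10 loci nearest to H19 were among the 10 highest. No paired analysis was possible because the tables hold 1 value per group, and no replicate could be left out for the same reason. The unknown number of reads limits every value of H19 and Igf2.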

Other observations

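Some imprinted genes have group values not given above. Usp29, which starts 0.15 kb from Peg3, is listed at 0 FPKM after saline under LacZ, beside 32.1 FPKM after CFA, and lies between 26.9 and 34.1 FPKM in the other 4 groups at the same place. Peg3, whose start lies next to it, had 92.0 FPKM in that saline group, and no fold is read from the value of Usp29. Kcnq1ot1, the antisense RNA of the Cdkn1c cluster, was listed at 0.0597 and 0.101 FPKM under HDAC4 wt and at 1.03 to 1.16 FPKM in the LacZ and HDAC4 3SA groups, whereas Cdkn1c lay between 14.8 and 17.7 FPKM in all 6. Slc38a4, an amino acid transporter gene, was 4.77-fold higher under LacZ, from 0.0769 to 0.367 FPKM, below the minimum level, and its other ratios were 0.679 (HDAC4 wt) and 0.968 (HDAC4 3SA). The second row of Peg3 had 0.450 to 0.851 FPKM and that of Plagl1 0.112 to 0.288 FPKM, far under the rows read above.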
